A study of Mus musculus with 3 samples.

Results

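Mouse embryonic stem cells in which MLL1 was inhibited were set against cells of the same line that were labelled Mll1-/-. The members are the single wells that each plate's deposited report types as cell type 3 (Mll1 inhibition, called inhibited here) or cell type 2 (Mll1-/-, called deleted), that held 1000 genes or more and less than 20% of their unique molecular identifiers (UMIs, tags that count single captured RNA molecules) on the mitochondrial genome. There were 1590 inhibited wells (542, 566 and 482 on plates 1, 2 and 3) and 1310 deleted wells (414, 354 and 542), together 2900 of the 4413 wells that passed. The other 1513 wells (617, 558 and 338) held cell type 1, the Mll1fl/fl control. All 3 types shared the alleles Mll1fl/fl and Cre-ER TM on C57BL/6J, in which loxP sites flank the gene and Cre recombinase is inducible. The cells were derived from blastocysts, and all 3 types were on each plate. The labels give neither the inhibitor, its dose and duration nor the deleted exons, and they do not say whether control or inhibited cells received the agent that activates Cre. Nothing says that the plates were separate cultures, so a p-value here measures how far plates vary, which could be technical variation alone.

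MLL1 (gene Kmt2a) is the catalytic subunit of a nuclear complex that methylates histone H3 on lysine 4, with WDR5, RBBP5, ASH2L and DPY30 as a shared core and menin as a targeting partner. It is known for keeping Hox genes active in development and in leukaemia, while in embryonic stem cells most of the mark is placed by related enzymes. A full deletion would take away the whole protein with its contacts, whereas an inhibitor acts on a protein that the cell still makes. No protein was measured here, so whether a partial product remained in deleted cells is not known. The comparison asks which genes separate the 2 ways of losing MLL1 function, with the control cells giving the level from which each could have moved.

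Summed per plate and type, inhibited libraries held 38650746, 29797840 and 38273851 UMIs and deleted libraries 29336380, 38462614 and 37733965. The median well held 37093, 28057 and 36389 UMIs in inhibited cells and 39658.5, 58507 and 23555.5 UMIs in deleted cells, so the deeper type differed between plates. The mitochondrial share of UMIs had a median of 3.48, 3.24 and 3.42% in inhibited wells, 4.16, 3.81 and 3.87% in deleted wells and 3.11, 3.06 and 3.18% in control wells. It was lower in inhibited than in deleted wells on all 3 plates (exact two-sided sign permutation p = 0.25, the smallest that 3 plates allow). Markers of embryonic stem cells summed to 4598 to 5323 CPM (UMI counts scaled to a common library total) in inhibited, 5199 to 6744 in deleted and 6179 to 6604 in control libraries, most of it Dppa5a, and Pou5f1 and Sox2 were present in every library. Of markers of other cells, Col1a1, Col3a1, Myog and Hbb-bs were each below 1 CPM in every library, while Tagln stood at 82.7 to 205, Cnn1 at 3.57 to 13.6, Acta2 at 1.4 to 15.8 and Twist1 at 2.39 to 7.05 CPM over all libraries. Markers of neural cells summed to 89.1 to 94.6 CPM in inhibited, 82.1 to 85.6 in deleted and 76.3 to 102 in control libraries, with Nes the largest. Those of blood and endothelium summed to 5.38 to 5.96 CPM in inhibited, 12.1 to 16.4 in deleted and 8.45 to 16.2 in control libraries, and their part in the results was not tested. Of these, Pecam1 alone stood at 2.02, 2.85 and 2.48 CPM in inhibited and 7.47, 8.06 and 7.71 in deleted libraries. Tek reached 7.56 CPM in the control library of plate 3, while Ptprc, Cdh5 and Spi1 were below 1 CPM in every library. Types sat in different areas of the chip, inhibited cells in A2, B2 and C2 on plates 1 and 2 but in A1, B1 and C1 on plate 3, and deleted cells in D1 and D2 on plates 1 and 2 but in A2, B2 and C2 on plate 3. Control cells sat in A1, B1 and C1 on plates 1 and 2 but in D1 and D2 on plate 3. Each type held its own areas on a plate, so a comparison within plates cannot tell type from area. The part of the chip area in the genes called below was not tested. Plates 1 and 2 shared 453 well barcodes, plates 1 and 3 shared 422 and plates 2 and 3 shared 391, of 3260 in all, with 113 on every plate; plate and barcode together named each well.

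Kmt2a (ENSMUSG00000002028; GRCm38 chr9:44803355-44881296, minus strand) was counted at 40.6, 43.4 and 46.7 CPM in inhibited cells on plates 1 to 3, against 62.1, 49.9 and 39.2 CPM in deleted cells, beside 50.2, 50.2 and 54.7 CPM in control cells. The ranges overlapped, and the log2 difference of inhibited minus deleted was -0.20 ± 0.16 (SE; edgeR adjusted p = 0.649). A transcript of a deleted gene can still be counted outside the lost exons, so this value does not check the genotype. Among the 21 MLL and COMPASS subunits, all of them tested, none passed, and their median difference was -0.01. Dpy30, the core subunit that holds ASH2L, averaged 959 ± 209 CPM in inhibited and 807 ± 112 CPM in deleted cells (SD, n = 3 each; log2 difference 0.23 ± 0.07, adjusted p = 0.17), and Kmt2c, which encodes MLL3, gave -0.34 ± 0.15 (adjusted p = 0.36).

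Between inhibited and deleted cells, 53 of 17119 genes passed an adjusted p of 0.05 (0.31%), 16 of them higher (0.0935%) and 37 lower (0.216%) in inhibited cells. At an unadjusted p under 0.05 there were 1195 higher (6.98%) and 1143 lower (6.68%) genes, 13.7% in all. All 53 had the same sign on each plate, and for 44 of them the inhibited and deleted libraries did not overlap, which was so for 11.8% of all genes tested. The mean of the control libraries lay between the other 2 means for 47 of the 53, below both for 5 and above both for 1. On the log2 scale it was nearer to the inhibited mean for 34, among them 25 of the 37 lower genes and 9 of the 16 higher ones. The 53 were picked for the gap between inhibited and deleted levels, which favours a control mean between them. These counts were not made over all genes tested, so they do not show which type moved from control. Set against the same control libraries, 4 of the 53 (Lgals3, Anxa2, Sqstm1 and Dusp9) passed in deleted and not in inhibited cells, mt-Rnr2 passed in both, and 48 passed in neither. A fit without plate 1 called 5 genes, 4 of them among the 53. Without plate 2 it called none (771 higher and 859 lower at an unadjusted p under 0.05). Without plate 3 it called 73 genes, 54 higher and 19 lower, of which 23 were among the 53. None of the 53 calls thus held without plate 2, and 30 were lost without plate 3. The excess of lower over higher genes did not hold without plate 3. Of the 53, 39 passed again when every well was thinned to 5869 UMIs and 18 when the deepest 5% of wells were left out.

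**Figure D1:**
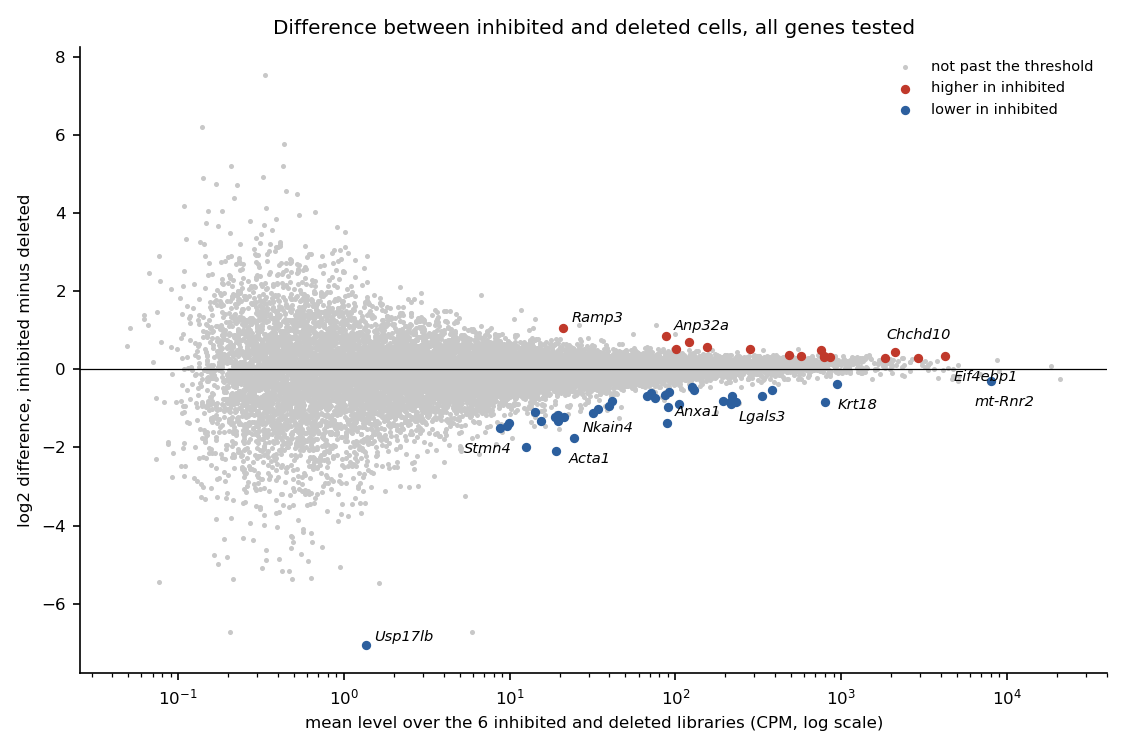
Each point is 1 of the 17119 genes tested; the horizontal axis is the mean level over the 6 inhibited and deleted libraries (CPM, log scale) and the vertical axis the log2 difference, inhibited minus deleted. The 16 red points passed as higher and the 37 blue points as lower in inhibited cells; the named lower genes at 10 to 100 CPM reach -2.09 (Acta1), while the higher ones reach 1.05 (Ramp3).

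Several genes of simple epithelium and of the membrane-bound annexin group were lower in inhibited than in deleted cells. Of 23 genes in that list, all tested, 7 passed as lower and 0 as higher, 14 were lower at an unadjusted p under 0.05, and 22 lay below 0. Their median log2 difference was -0.50, beside -0.003 over all genes, of which 50.4% lay below 0. Lgals3, which encodes the sugar-binding galectin-3 (ENSMUSG00000050335; chr14:47367751-47386160, plus strand), was counted at 150.1, 155 and 154 CPM in inhibited cells, against 248, 305 and 274 CPM in deleted cells, beside 167, 180.3 and 169 CPM in control cells. All deleted libraries stood above all others, and the difference of inhibited minus deleted was -0.84 ± 0.07 (adjusted p = 0.00472). Anxa2, an annexin that binds membranes in the presence of calcium (ENSMUSG00000032231; chr9:69453620-69491795, plus strand), was counted at 128, 169 and 124 CPM in inhibited cells, against 214, 292 and 227 CPM in deleted cells (-0.80 ± 0.07, adjusted p = 0.00472). The control libraries stood at 132, 159.9 and 134 CPM. Inhibited and control libraries overlapped here, and deleted libraries stood apart. Anxa1, a related annexin, was counted at 45.2, 54.4 and 46.2 CPM in inhibited cells, against 79.8, 153 and 154 CPM in deleted cells (-1.36 ± 0.18, adjusted p = 0.0201). In control cells it was 61.4, 61.2 and 77.3 CPM. S100a11, a calcium-binding partner of annexins chosen after its values were seen, gave -0.53 ± 0.09 (adjusted p = 0.0441) with overlapping libraries.

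The keratins of simple epithelium were also lower in inhibited than in deleted cells. Krt18 was counted at 405, 695 and 606 CPM in inhibited cells, against 696, 1171 and 1214 CPM in deleted cells, beside 527, 603 and 647 CPM in control cells, and every deleted library was above every inhibited one (-0.85 ± 0.11, adjusted p = 0.0185). Its filament partner Krt8 was counted at 105, 157 and 199 CPM in inhibited cells, against 225, 276 and 345 CPM in deleted cells (-0.89 ± 0.14, adjusted p = 0.0318). Krt19 was counted at 17.9, 22.0 and 19.9 CPM in inhibited cells, against 39.4, 51.4 and 39.3 CPM in deleted cells (-1.12 ± 0.16, adjusted p = 0.0273), but in thinned wells its level gave -0.61 and did not pass (adjusted p = 0.127). These 3 keratins are also the members that passed among 22 tested trophectoderm markers (of 23 listed), where 16 lay below 0 and the median was -0.37. Keratin genes have processed pseudogenes, and reads of such copies may be split or shared between them. The median of the epithelial list shrank to -0.18 when each well was thinned to the same number of UMIs (20 of 22 tested members below 0, 8 passing) and to -0.28 without the deepest 5% of wells. Without plate 3 the trophectoderm median was -0.16, with no member passing.

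**Figure D2:**
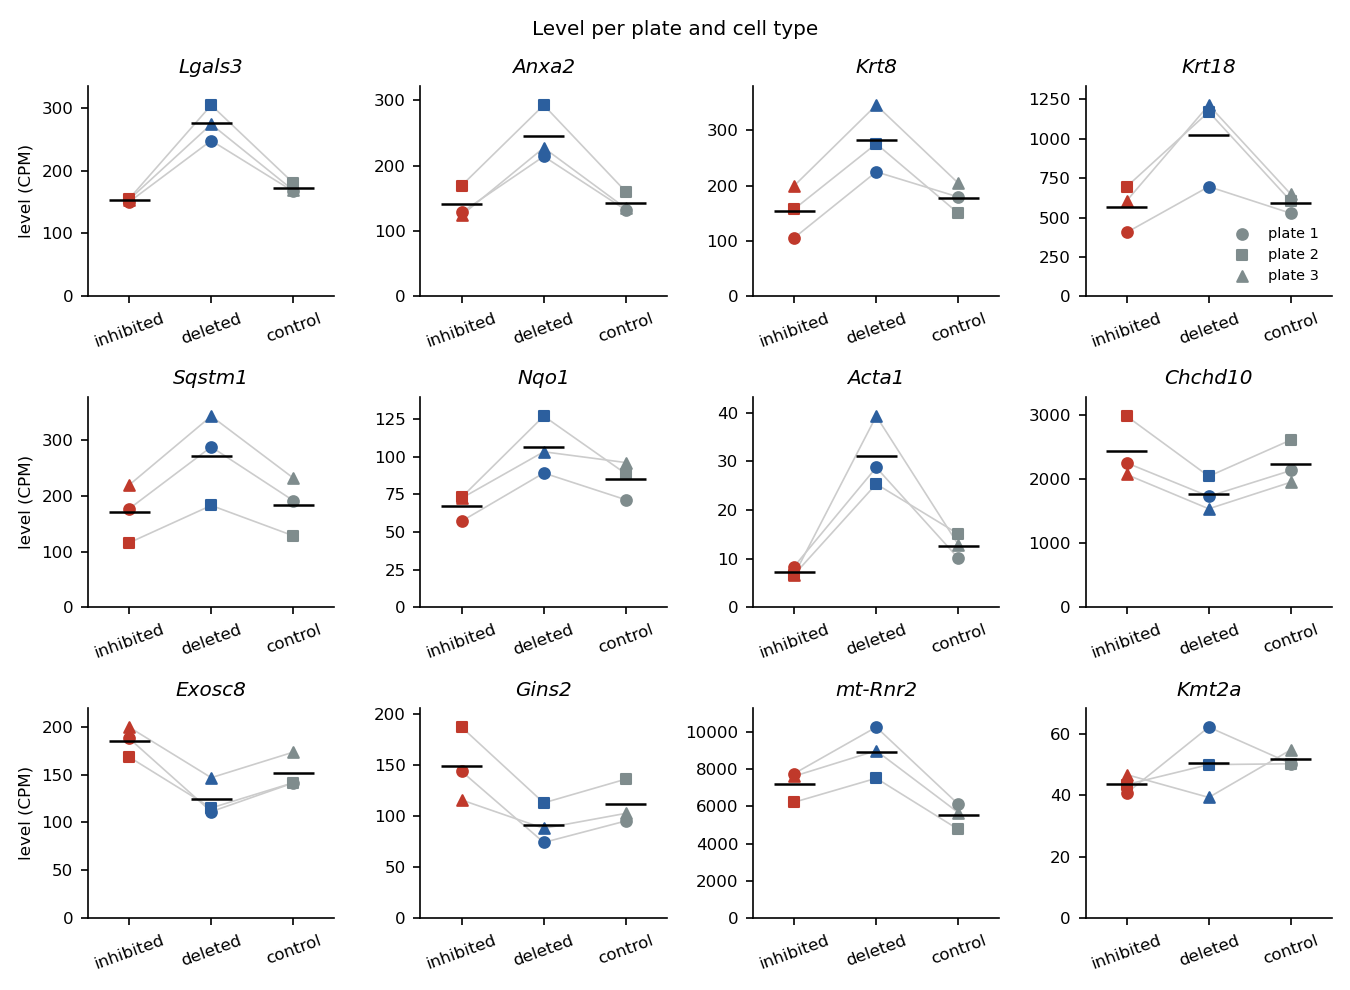
Levels of 12 genes (vertical axes, CPM from 0) in inhibited, deleted and control cells, 1 point per plate with lines joining the types of a plate and black bars for the means. Lgals3, Anxa2, Krt8, Krt18 and Acta1 are highest in the deleted library of each plate, Chchd10, Exosc8 and Gins2 are lowest there, inhibited libraries lie below deleted and above control ones for mt-Rnr2 on each plate, and Kmt2a shows no common order.

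The regions just upstream of 4 of the lower genes are shown, picked because each holds a match to a known motif. Whether any factor acts on these genes here was not tested. The windows are the 250 bases before the start in RefSeq (GRCm38.p6), 5′ to 3′ on the strand of the gene. Capitals mark only the motifs picked for each gene, and a TATAAAA in the window of Anxa2 is left in lower case. In the windows of Anxa2 (chr9:69453433-69453682, plus strand), S100a11 (chr3:93520246-93520495, plus strand) and Srxn1 (chr2:152105274-152105523, plus strand) the capitals are TGAGTCA, the heptamer known for AP-1 binding. In that of Acta1 (chr8:123894776-123895025, minus strand) they are CCAAATATGG, a CArG box of the kind that serum response factor binds, and TATAAAA.
Anxa2: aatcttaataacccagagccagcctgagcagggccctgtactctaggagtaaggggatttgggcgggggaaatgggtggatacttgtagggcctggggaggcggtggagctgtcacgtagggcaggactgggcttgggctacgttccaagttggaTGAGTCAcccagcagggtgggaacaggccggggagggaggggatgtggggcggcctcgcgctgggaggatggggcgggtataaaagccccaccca
S100a11: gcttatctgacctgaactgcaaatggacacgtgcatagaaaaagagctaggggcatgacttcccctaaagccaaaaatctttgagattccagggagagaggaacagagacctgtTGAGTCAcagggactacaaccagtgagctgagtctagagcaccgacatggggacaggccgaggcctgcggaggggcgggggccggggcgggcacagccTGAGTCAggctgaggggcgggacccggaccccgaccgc
Srxn1: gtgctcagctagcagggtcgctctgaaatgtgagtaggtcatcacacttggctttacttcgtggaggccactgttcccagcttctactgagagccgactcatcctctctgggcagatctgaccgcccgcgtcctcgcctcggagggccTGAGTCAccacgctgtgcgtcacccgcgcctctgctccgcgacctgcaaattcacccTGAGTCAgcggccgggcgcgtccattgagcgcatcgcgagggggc
Acta1: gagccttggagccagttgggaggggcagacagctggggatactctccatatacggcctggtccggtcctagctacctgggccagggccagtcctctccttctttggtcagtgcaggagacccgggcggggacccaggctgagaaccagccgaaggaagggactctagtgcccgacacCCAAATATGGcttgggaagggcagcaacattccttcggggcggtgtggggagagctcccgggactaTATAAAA
Both strands were searched, the motifs were chosen after the values were seen, and no gene that passed held both TGAGTCA and TGACNNNGC. TGAGTCA was in the windows of 3 of the 28 lower genes with a window (10.7%) and 0 of 9 higher genes, beside 5.16% of 27025 genes. TGACNNNGC, the core of the antioxidant response element, was in 3 of the 28 lower genes (Aff4, App and Fxyd6, 10.7%) and in Cks1b among the higher ones, beside 11.5% of all genes. CCAAATATGG was in 0.0518% of all genes and, of those that passed, in Acta1; TATAAAA was in 5.85% of all genes and in 4 of the 28 (Acta1, Anxa1, Anxa2 and Usp17lb). A match of letters is a description of the window and not a site of binding.

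Acta1, the actin of skeletal muscle thin filaments, had the largest difference among genes at 10 CPM or more that passed. This gene (ENSMUSG00000031972; chr8:123891769-123894751, minus strand) was counted at 8.35, 6.67 and 6.61 CPM in inhibited cells, against 28.7, 25.3 and 39.3 CPM in deleted cells, beside 10.1, 15.0 and 12.8 CPM in control cells. The 3 types did not overlap, and the difference was -2.09 ± 0.24 (adjusted p = 0.0111). Among 24 tested actin and contractile genes (of 27), Acta1 alone passed, 9 were lower and 0 higher at an unadjusted p under 0.05, 21 lay below 0, and the median was -0.24. Of its paralogs, smooth muscle Acta2 averaged 4.76 ± 3.04 CPM in inhibited and 13.1 ± 3.47 CPM in deleted cells (SD, n = 3 each; -1.60 ± 0.43, adjusted p = 0.153), and the cytoskeletal Actb and Actg1 gave -0.15 ± 0.04 (adjusted p = 0.169) and -0.26 ± 0.07 (adjusted p = 0.173). Actin transcripts are much alike, so reads may be split among them. Markers of smooth and skeletal muscle summed to 88.8 to 151 CPM in inhibited, 120.1 to 236 in deleted and 105 to 143 in control libraries, with Tagln giving most of it and Myog near 0. Of the 10 markers in that list 4 were abundant enough to test and lay below 0, with a median of -1.04 and 3 at an unadjusted p under 0.05, and their part in the result was not tested. Feeder fibroblast markers ran from 88.4 to 153 CPM in inhibited, 115 to 227 in deleted and 103 to 134 in control libraries, again mostly Tagln.

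The remaining large falls that the naming rule picked were of mixed function. Nkain4, which interacts with the sodium pump, was counted at 7.23, 15.9 and 11.1 CPM in inhibited cells, against 33.5, 33.7 and 45.7 CPM in deleted cells (-1.76 ± 0.22, adjusted p = 0.0185). Control cells had 16.9, 19.9 and 18.9 CPM, with no overlap between inhibited and deleted libraries. Stmn4, a microtubule regulator of the stathmin family, was counted at 4.49, 4.46 and 5.41 CPM in inhibited cells, against 24.4, 25.4 and 11.2 CPM in deleted cells (-1.98 ± 0.33, adjusted p = 0.0443). The control libraries stood at 5.51, 3.45 and 2.48 CPM. The deleted library of plate 3 was the lowest of its type but still above the others. In thinned wells Stmn4 gave -1.76 and Nkain4 -1.32. Myof, a membrane repair protein, gave -1.22 ± 0.17 (adjusted p = 0.0273), and the actin-severing Gsn gave -1.21 ± 0.19 (adjusted p = 0.0361). Eps8l2, an actin-binding adaptor, gave -1.33 ± 0.18 (adjusted p = 0.0256), Slc25a24, a mitochondrial carrier of adenine nucleotides, -1.32 ± 0.20 (adjusted p = 0.0304), and Snx30, a sorting nexin, -1.17 ± 0.17 (adjusted p = 0.0289). These 3 did not pass in thinned wells, where Eps8l2 gave -0.52 (adjusted p = 0.426), Slc25a24 -0.88 (adjusted p = 0.0868) and Snx30 -0.43 (adjusted p = 0.459). Fxyd6, a regulator of the sodium pump, gave -0.96 ± 0.14 (adjusted p = 0.0289; -0.60 and adjusted p = 0.0112 in thinned wells), which made 2 of 14 tested ion pump and transporter genes (of 18) that passed, with a median of -0.17 over the 14.

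Part of the antioxidant programme under NRF2, the factor that induces redox enzymes, was lower in inhibited cells. Of 21 genes in that list, all tested, Sqstm1, Srxn1 and Nqo1 passed as lower and 0 passed as higher; at an unadjusted p under 0.05, 7 were lower and 3 higher, and the median was 0.01. Sqstm1, which encodes the autophagy receptor p62, was counted at 176, 116 and 219 CPM in inhibited cells, against 288, 183 and 343 CPM in deleted cells, beside 191, 128 and 232 CPM in control cells. Plates differed more than types, so the groups overlapped, but on each plate the deleted library was highest (-0.67 ± 0.06, adjusted p = 0.00472). Nqo1, a quinone reductase, was counted at 57.1, 72.9 and 72.3 CPM in inhibited cells, against 89.1, 127 and 103 CPM in deleted cells (-0.65 ± 0.10, adjusted p = 0.0309). In control cells it was 71.3, 88.5 and 96.0 CPM. Srxn1, which reduces oxidised peroxiredoxins, was counted at 33.0, 30.0 and 26.5 CPM in inhibited cells, against 57.2, 54.7 and 46.5 CPM in deleted cells (-0.82 ± 0.11, adjusted p = 0.0256), with control cells between at 40.9, 41.9 and 35.3 CPM. Enzymes of detoxification outside the list also passed and were chosen after their values were seen. Cbr3, a carbonyl reductase, was counted at 21.6, 22.5 and 23.6 CPM in inhibited cells, against 46.9, 44.0 and 45.8 CPM in deleted cells (-1.01 ± 0.12, adjusted p = 0.0185). Control cells had 37.6, 39.2 and 34.8 CPM. Gsto1 gave -0.68 ± 0.10 (adjusted p = 0.0289) and Mgst3, also a glutathione transferase, -0.61 ± 0.10 (adjusted p = 0.0443). In thinned wells Srxn1 (-0.54, adjusted p = 0.124) and Mgst3 (-0.32, adjusted p = 0.335) did not pass. Other NRF2 genes in the list did not pass, such as Gclm at -0.43 ± 0.13 (adjusted p = 0.19) and Hmox1 at 0.23 ± 0.08 (adjusted p = 0.256), also chosen after their values were seen.

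Fabp3, a carrier of fatty acids, was counted at 135, 181 and 190.4 CPM in inhibited cells, against 255, 311 and 329 CPM in deleted cells (-0.83 ± 0.08, adjusted p = 0.00472). The control libraries stood at 188, 217 and 289 CPM. Its processed pseudogene Fabp3-ps1 gave -0.88 ± 0.11 (adjusted p = 0.0185), and since the sequences are near identical the 2 values may share reads; both genes were chosen after their values were seen. Dusp9, a phosphatase of ERK kinases, was counted at 121, 84.1 and 111 CPM in inhibited cells, against 181, 116 and 159.9 CPM in deleted cells, beside 114, 82.2 and 94.4 CPM in control cells, higher in the deleted library on each plate although the ranges overlapped (-0.52 ± 0.08, adjusted p = 0.0361). Igf2, the imprinted growth factor, gave -0.74 ± 0.13 (adjusted p = 0.0497; -0.49 and adjusted p = 0.0699 in thinned wells) and was the 1 imprinted gene of 19 tested that passed. Usp17lb, one of a family of near-identical deubiquitinase genes, had the largest difference of the genes that passed and was chosen for it (-7.06 ± 1.14, adjusted p = 0.0437), at 0.0266, 0.0351 and 0 CPM in inhibited cells, against 0.943, 3.67 and 3.49 CPM in deleted cells. Reads of this family and counts near 0 make it uncertain.

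The 16 higher genes differed by at most 1.05 on the log2 scale. Chchd10, a protein of the mitochondrial intermembrane space, was counted at 2256, 2986 and 2074 CPM in inhibited cells, against 1733, 2046 and 1538 CPM in deleted cells (0.45 ± 0.05, adjusted p = 0.00587). In control cells it was 2137, 2614 and 1954 CPM. Ramp3, a partner of calcitonin-family receptors, was counted at 27.4, 34.7 and 22.4 CPM in inhibited cells, against 12.8, 17.6 and 10.6 CPM in deleted cells, beside 21.8, 24.9 and 16.0 CPM in control cells, and had the largest rise among the named genes (1.05 ± 0.15, adjusted p = 0.0269). For both genes every inhibited library was above every deleted one. Anp32a, a histone-binding phosphatase inhibitor, was counted at 122, 112 and 103 CPM in inhibited cells, against 62.5, 53.4 and 70.6 CPM in deleted cells (0.85 ± 0.12, adjusted p = 0.0273). Exosc8, a subunit of the RNA exosome, was counted at 188, 168 and 199.6 CPM in inhibited cells, against 111, 115 and 147 CPM in deleted cells (0.58 ± 0.08, adjusted p = 0.0256). Hmgn2, which binds nucleosomes, was counted at 787, 929 and 944 CPM in inhibited cells, against 492, 649 and 755 CPM in deleted cells (0.50 ± 0.07, adjusted p = 0.0273). Control cells had 585, 717 and 716 CPM. Of the remaining rises named by size, Rbfa, a ribosome assembly factor of mitochondria, gave 0.52 ± 0.09 (adjusted p = 0.0443), Car2, a carbonic anhydrase, 0.51 ± 0.08 (adjusted p = 0.0348), Pdhb, a pyruvate dehydrogenase subunit, 0.37 ± 0.06 (adjusted p = 0.0443) and Dctpp1, which clears non-canonical nucleotides, 0.35 ± 0.06 (adjusted p = 0.0489). Ldha, a glycolytic enzyme, gave 0.32 ± 0.05 (adjusted p = 0.0443). In thinned wells Rbfa (0.39, adjusted p = 0.0631) and Ldha (0.23, adjusted p = 0.0598) did not pass. Pseudogenes or unnamed genes made up 3 of the 16, and their reads are uncertain.

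Genes of DNA replication lay above 0 as a list. Gins2, a subunit of the replicative helicase, was counted at 144, 187 and 116 CPM in inhibited cells, against 74.2, 113 and 87.9 CPM in deleted cells, beside 95.2, 136 and 103 CPM in control cells, without overlap between inhibited and deleted libraries (0.70 ± 0.11, adjusted p = 0.0309). It was the 1 of 24 S phase genes that passed, 21 of the 24 lay above 0, 9 were higher and 0 lower at an unadjusted p under 0.05, and the median was 0.12. Rrm2, a ribonucleotide reductase subunit, gave 0.30 ± 0.07 (adjusted p = 0.119). For 24 genes of G2 and mitosis the median was also 0.12, with 22 above 0, 3 higher at an unadjusted p under 0.05 and none passing; without the deepest 5% of wells it was 0.05.

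Transcripts of the mitochondrial genome lay below 0 between inhibited and deleted cells, with mt-Rnr2 passing, while nuclear genes of the same respiratory chain lay slightly above 0. The ribosomal RNA mt-Rnr2 was counted at 7758, 6225 and 7621 CPM in inhibited cells, against 10254, 7509.9 and 8989.5 CPM in deleted cells, beside 6114, 4764 and 5662 CPM in control cells. On each plate the inhibited library lay below the deleted and above the control one, and the difference of inhibited minus deleted was -0.30 ± 0.04 (adjusted p = 0.0207). Against the shared control libraries it was 0.39 ± 0.04 in inhibited cells (adjusted p = 0.0279) and 0.69 ± 0.04 in deleted cells (adjusted p = 0.000103). All 12 tested mitochondrial genes (of 15) lay below 0 between inhibited and deleted cells, 7 at an unadjusted p under 0.05, with a median of -0.23 that became -0.14 without plate 1; mt-Rnr1 gave -0.29 ± 0.06 (adjusted p = 0.0852) and mt-Co1 -0.22 ± 0.05 (adjusted p = 0.1). Of 31 nuclear oxidative phosphorylation genes 26 lay above 0, 13 were higher and 0 lower at an unadjusted p under 0.05, none passed, and the median was 0.12. The mitochondrial share of UMIs given above moves with these values, and genes of the mitochondrial genome have nuclear copies that could share reads. With mitochondrial genes left out of the library sizes, the nuclear list kept 26 of 31 above 0 and a median of 0.12.

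**Figure D3:**
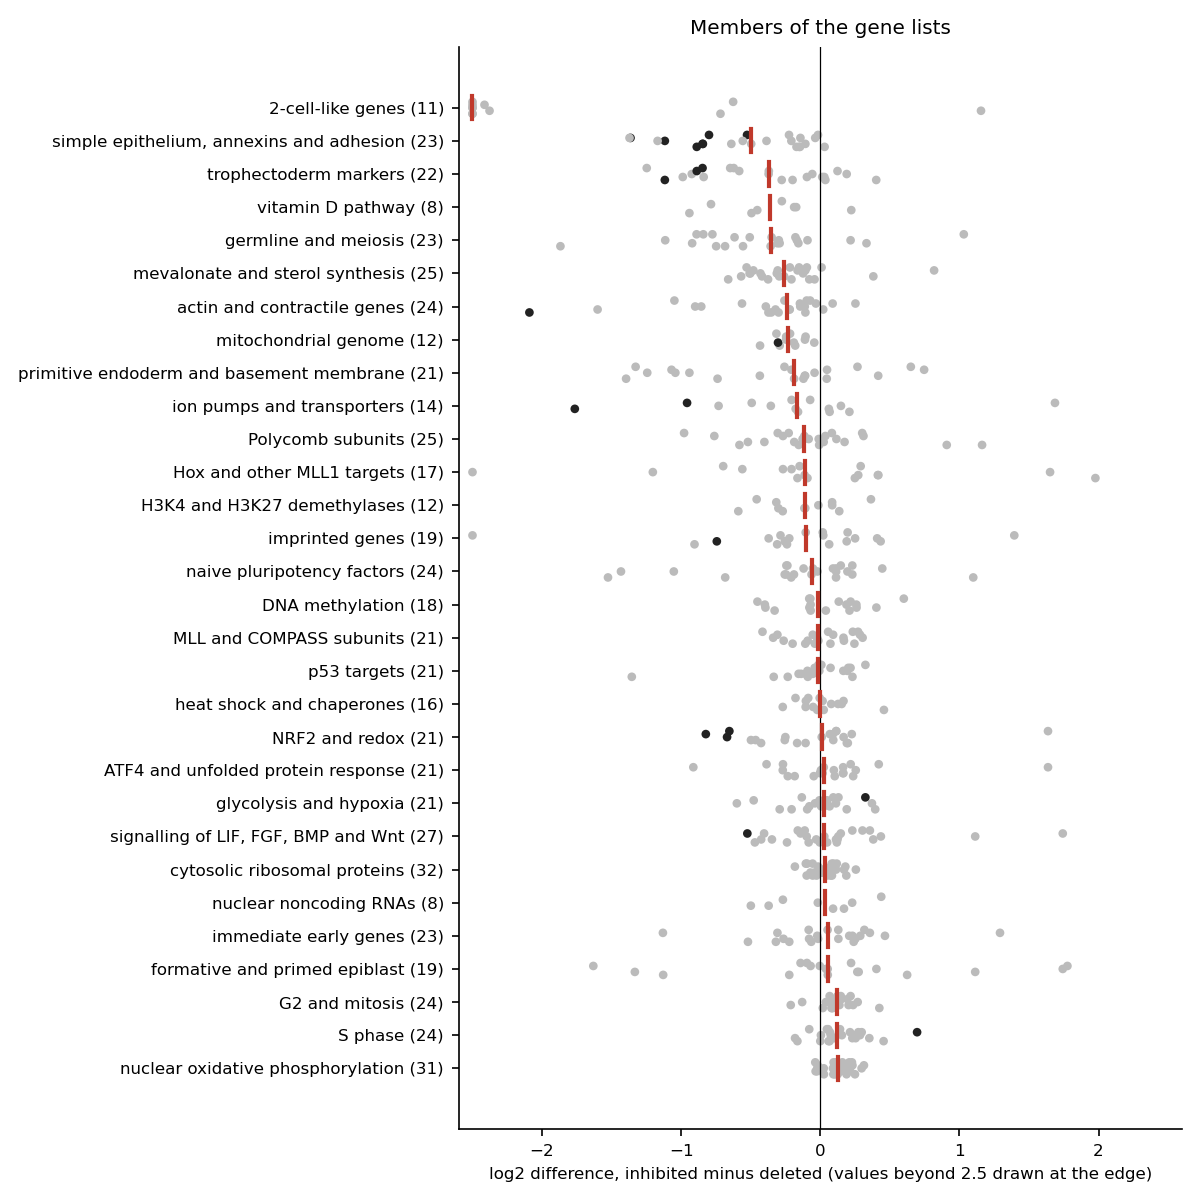
Log2 difference (inhibited minus deleted, horizontal axis; values past 2.5 drawn at the edge) of each tested member of 30 gene lists, 1 row per list with the number tested in brackets; black points passed the adjusted threshold and red bars are medians. The epithelial list has its median at -0.50 and the mitochondrial genome at -0.23, while the S phase, G2 and nuclear oxidative phosphorylation lists have theirs at 0.12.

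For the lists described here, the medians against the shared control libraries stood as follows. The epithelial and annexin list had -0.11 in inhibited and 0.31 in deleted cells, the trophectoderm list 0.11 in inhibited and 0.55 in deleted cells, and the actin list 0.07 in inhibited and 0.25 in deleted cells. Mevalonate and sterol synthesis, the pathway to cholesterol, had 0.09 in inhibited and 0.41 in deleted cells. Between inhibited and deleted cells 22 of its 25 genes lay below 0 (median -0.26, or -0.16 in thinned wells), 7 were lower and 1 higher at an unadjusted p under 0.05, and none passed; Hmgcs1, an early enzyme of the pathway, gave -0.57 ± 0.12 (adjusted p = 0.0901). The 2-cell-like list, with 11 of 26 genes tested, had -1.37 in inhibited and 1.49 in deleted cells. In the deleted library of plate 3, the 5 wells with most UMIs held 93.6% of that list's sum at full depth. Its medians may therefore describe a few wells. The vitamin D pathway had 0.03 in inhibited and 0.29 in deleted cells. That pathway had 7 of 8 tested genes below 0 between inhibited and deleted cells (median -0.36), but without plate 1 its median was 0.04. Germline and meiosis genes had -0.37 in inhibited and 0.13 in deleted cells. Of 23 tested (of 24), 20 lay below 0 between inhibited and deleted cells (median -0.36), 6 were lower at an unadjusted p under 0.05, and none passed. Stra8, which is needed to enter meiosis, came nearest at 9.55, 11.2 and 15.1 CPM in inhibited cells, against 20.8, 33.7 and 23.6 CPM in deleted cells (-1.11 ± 0.19, adjusted p = 0.0521). The control libraries stood at 23.3, 27.5 and 25.9 CPM. Here inhibited libraries stood apart while deleted and control libraries overlapped.

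Pluripotency factors and the classical MLL1 targets gave no call. Of 24 naive pluripotency factors, all tested, 4 were lower and 2 higher at an unadjusted p under 0.05, and the median was -0.06. Summed per thinned well, the same list had medians of 19, 18 and 21 UMIs in inhibited, 28, 25.5 and 34 in deleted and 32, 33 and 37 in control wells, and the chance that an inhibited well exceeded a deleted one was 0.432, 0.438 and 0.369. Dppa5a, the most abundant marker of these cells, made up most of that list's sum. At full depth it held 4561, 4046 and 3822 of 5808, 5195 and 5162 CPM in inhibited libraries. In deleted libraries it held 4965, 4535 and 5947 of 6355, 5703 and 7379.5 CPM. The per-well values therefore mostly describe this gene, which gave -0.26 ± 0.09 by level (adjusted p = 0.24). Nanog, a core factor of this state, was counted at 9.94, 13.0 and 14.7 CPM in inhibited cells, against 21.7, 21.5 and 17.1 CPM in deleted cells (-0.68 ± 0.21, adjusted p = 0.19). In control cells it was 25.4, 19.2 and 22.6 CPM. Inhibited libraries were below all others, but the difference did not pass. Pou5f1 gave 0.11 ± 0.11 (adjusted p = 0.719). Of 27 Hox and other MLL1 target genes 17 were abundant enough to test, none passed, and the median was -0.11. Its sign was not stable, at 0.20 without plate 2, 0.29 without plate 3 and 0.11 in thinned wells with 5 tested. Hoxa9, a classical target, was counted at 0.691, 1.76 and 0.993 CPM in inhibited cells, against 0.976, 0.258 and 0.0782 CPM in deleted cells (1.98 ± 0.88, adjusted p = 0.364). The 2-cell-like genes had a median of -2.98 over 11 tested of 26, with 10 below 0 and none passing, at summed levels of 8.20 to 24.9 CPM in inhibited and 16.8 to 97.4 in deleted libraries. Without plate 3 the median was -0.03, with 6 of 12 tested genes below 0, and in the deleted library of plate 3 the 5 wells with most UMIs held 93.6% of the list's sum at full depth. The family members are near identical and their reads uncertain.

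The wells were then compared at equal depth. Each was thinned at random to 5869 UMIs, the 10th percentile of kept totals, which 1414 inhibited, 1147 deleted and 1410 control wells reached; 176, 163 and 103 were too shallow. The median well then held 1951, 1953 and 1969 genes in inhibited, 1985, 2033 and 1953 in deleted and 2040, 2040 and 2122.5 in control cells (inhibited against deleted, exact sign permutation p = 0.5). For each gene the share of wells with at least 1 UMI was tested over plates with limma. Of 9687 genes, 117 passed (1.21%), 18 higher (0.186%) and 99 lower (1.02%) in inhibited cells, and for 100 of them the inhibited and deleted plates did not overlap, which was so for 12.3% of all 9687. The median log2 odds ratio over all genes was -0.06. Without plate 1 the test called 1 gene, without plate 2 it called 3 and without plate 3 266. Without thinning, where wells differed in depth, it called 0 (10 higher and 737 lower at an unadjusted p under 0.05). A second random draw at the same depth called 113 genes, 59 of them among the 117. These calls therefore rest on the depth chosen, on the draw and on plates 1 and 2. On those plates inhibited wells lay in A2, B2 and C2 and deleted wells in D1 and D2. The part of the chip area in these calls was not tested. The shares and the sums called 25 genes in common, 47.17% of those called by sums and 21.368% of those called by shares; the wells are the same, so the tests are not independent.

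Krt8 was seen in 27.3, 25.7 and 34.8% of inhibited wells, against 42.5, 37.3 and 50.1% of deleted wells and 39.9, 30.4 and 42.3% of control wells (log2 odds ratio -0.89 ± 0.13, limma adjusted p = 6.69e-05). The 95% exact binomial interval on plate 1 was 23.4 to 31.5% in inhibited and 37.4 to 47.7% in deleted wells, which covers counting error only. Without thinning the shares were 66.2, 51.4 and 74.9% in inhibited, 77.3, 72.0 and 78.2% in deleted and 75.9, 64.3 and 84.0% in control wells. The median deleted well was deeper than the inhibited one on plates 1 and 2 and shallower on plate 3. Unthinned shares, here and below, were not adjusted for this, so their order does not check the shares at equal depth. By the summed level of Krt8 the control mean lay nearer to inhibited cells. By its share at equal depth the control lay nearer to deleted wells on plate 1 and nearer to inhibited wells on plate 2. Lgals3 was seen in 30.8, 28.9 and 34.6% of inhibited wells, against 44.1, 41.0 and 45.8% of deleted wells and 39.9, 35.5 and 35.6% of control wells (-0.76 ± 0.13, adjusted p = 0.000826), without overlap between inhibited and deleted plates. Anxa1 was seen in 12.7, 9.56 and 10.2% of inhibited wells, against 17.1, 24.1 and 21.5% of deleted wells (-1.12 ± 0.18, adjusted p = 0.000119). Unthinned, Lgals3 was in 63.1, 50.7 and 70.1% of inhibited and 72.0, 72.3 and 69.4% of deleted wells. Plate 3, where the median deleted well was the shallower, did not keep this order. Anxa1 was in 28.8, 23.9 and 26.6% of inhibited and 33.1, 41.8 and 37.5% of deleted wells without thinning. Of wells without a cell, which held a median of 165 UMIs, 2 of 15 had a UMI of Krt8 and 0 of 15 one of Lgals3, Anxa1, Acta1, Nkain4, Gc or Ramp3. All 3 cell types held each of these genes in some wells, so none could serve as a type without them.

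Gc, the vitamin D binding protein, passed by share and not by level. It was seen in 22.0, 19.7 and 24.2% of inhibited wells, against 34.2, 31.3 and 30.8% of deleted wells and 35.8, 33.1 and 39.7% of control wells (-0.75 ± 0.14, adjusted p = 0.00105), so inhibited wells stood apart from both other types. Unthinned, the shares were 48.5, 42.4 and 49.4% in inhibited and 58.7, 60.7 and 49.8% in deleted wells. Its summed level was 82.1, 70.6 and 71.5 CPM in inhibited cells, against 113, 90.6 and 114 CPM in deleted cells (-0.49 ± 0.13, adjusted p = 0.142). Control cells had 99.5, 101 and 146 CPM. Nkain4 was rarer, in 3.47, 3.78 and 2.61% of inhibited wells, against 7.75, 9.64 and 9.98% of deleted wells and 5.35, 4.43 and 7.05% of control wells (-1.54 ± 0.26, adjusted p = 0.000386). Acta1 was seen in 2.24, 2.19 and 4.50% of inhibited wells, against 6.68, 6.93 and 6.35% of deleted wells and 4.32, 4.05 and 5.77% of control wells (-1.27 ± 0.28, adjusted p = 0.01). Unthinned, Nkain4 was in 11.3, 8.30 and 10.4% of inhibited and 17.6, 19.2 and 16.2% of deleted wells, and Acta1 in 11.1, 6.36 and 15.6% of inhibited and 16.4, 15.8 and 16.6% of deleted wells, so both stayed lower in inhibited wells on each plate. Stra8 passed here as well, in 2.86, 4.58 and 5.21% of inhibited wells, against 7.75, 9.94 and 7.48% of deleted wells (-1.07 ± 0.24, adjusted p = 0.0088).

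The rule for shares named the largest odds ratios among the 117. Capn1, a calcium-dependent protease, was seen in 1.43, 0.797 and 1.18% of inhibited wells, against 3.48, 4.52 and 4.54% of deleted wells (-1.86 ± 0.42, adjusted p = 0.0105). Kif21b, a kinesin motor, gave -2.01 ± 0.42 (adjusted p = 0.00597) on 1, 4 and 14 positive inhibited wells, and its plates were uneven, at 0.204, 0.797 and 3.32% of inhibited wells, against 3.74, 3.01 and 4.54% of deleted wells. Unthinned, Kif21b was in 8.30, 5.30 and 12.2% of inhibited and 12.8, 9.04 and 12% of deleted wells, with no such difference on plate 3, and Capn1 was in 7.93, 5.30 and 8.09% of inhibited and 14.5, 14.4 and 14.9% of deleted wells. The protease Klk10 gave -1.56 ± 0.41 (adjusted p = 0.0392), and the testis cytochrome c gene Cyct gave -1.45 ± 0.38 (adjusted p = 0.033). Among rises, Fkbp3, a nuclear prolyl isomerase, was seen in 91.6, 88.8 and 86.7% of inhibited wells, against 80.7, 77.1 and 83.7% of deleted wells (0.99 ± 0.21, adjusted p = 0.00586). The zinc finger gene Zfp827 was seen in 14.1, 11.2 and 12.1% of inhibited wells, against 5.88, 8.73 and 7.26% of deleted wells (0.85 ± 0.20, adjusted p = 0.014). Unthinned, Fkbp3 was in 94.6, 90.8 and 91.9% of inhibited and 91.5, 90.4 and 86.7% of deleted wells. Zfp827 was in 33.8, 28.4 and 29.7% of inhibited and 24.9, 29.9 and 19.7% of deleted wells without thinning. Its order was the other way round on plate 2, where the median deleted well was the deeper. Ramp3 was seen in 12.2, 11.6 and 9.48% of inhibited wells, against 6.15, 7.23 and 5.67% of deleted wells (0.86 ± 0.21, adjusted p = 0.0166), while unthinned it was in 26.8, 23.9 and 26.1% of inhibited and 24.9, 26 and 16.1% of deleted wells. The list was completed by 2 unnamed gene models, Gm17093 and Gm8127.

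**Figure D4:**
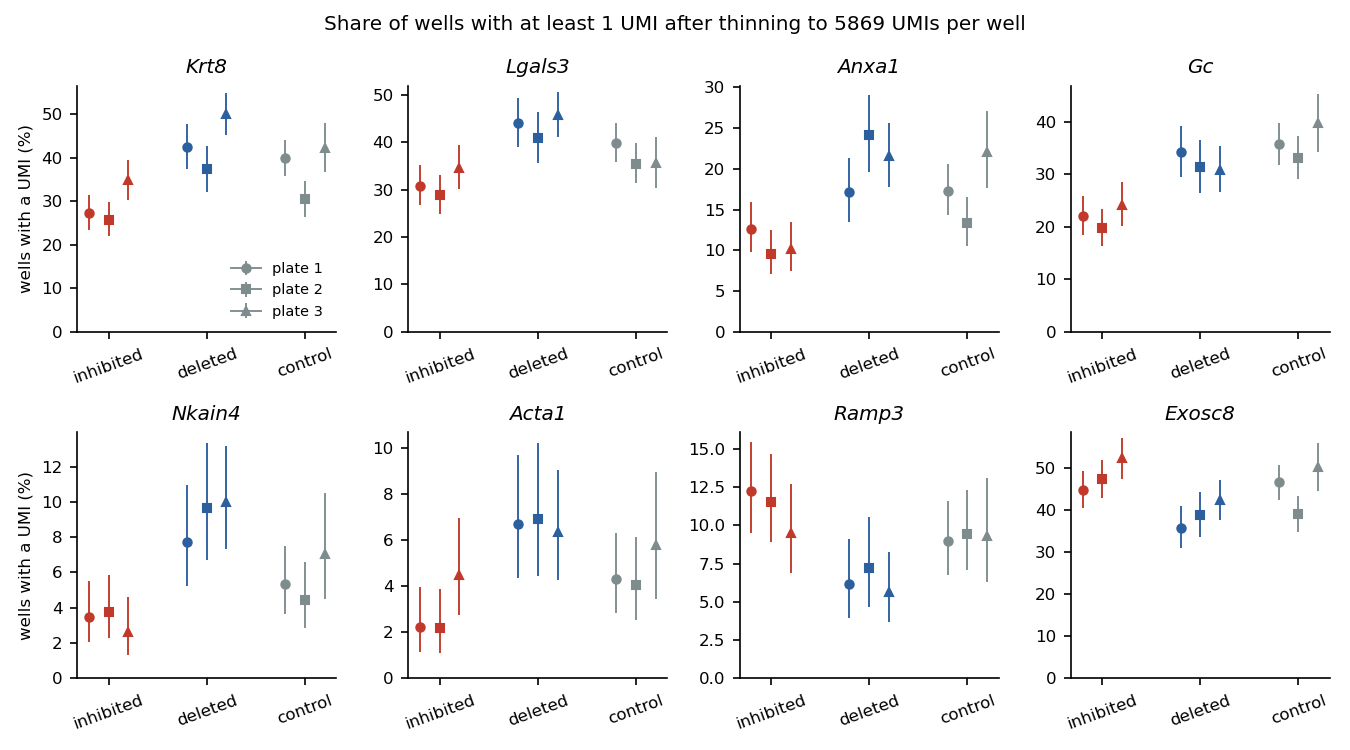
Share of wells (vertical axes, % from 0) with at least 1 UMI of 8 genes after thinning each well to 5869 UMIs, for inhibited, deleted and control cells; 1 point per plate with its 95% exact binomial interval. Krt8, Lgals3, Anxa1, Nkain4 and Acta1 are lowest in inhibited wells of each plate, Gc has inhibited wells at 19.7 to 24.2% and both other types above 30%, and Ramp3 and Exosc8 are higher in inhibited than in deleted wells.

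In the epithelial list 7 of 22 tested genes were lower and 0 higher (Anxa1, Krt8, Krt18, Krt19, Lgals3, S100a11 and Tinagl1; Anxa2 did not pass, at an adjusted p of 0.0981), 19 lay below 0, and the median log2 odds ratio was -0.40. The trophectoderm list had 4 lower of 16 (Krt7, Krt8, Krt18 and Krt19), NRF2 3 of 15 (Sqstm1, Srxn1 and Txnrd1), and germline and meiosis 3 of 14 (Rpl10l, Stra8 and Sycp1) with 13 of 14 below 0. In the sterol list Hmgcs1 passed, in 21.2, 26.1 and 23.2% of inhibited wells, against 32.6, 32.2 and 32.9% of deleted wells and 20.4, 23.1 and 29.5% of control wells (-0.66 ± 0.14, adjusted p = 0.00885). For the 21 genes that were lower by both measures, the control mean was nearer to inhibited cells for 19 by summed level and for 11 by share. Here the distance between levels was taken in CPM, not on the log2 scale used for the earlier counts. For a control mean between the other means, distance in CPM favours the lower type, here inhibited cells. The count of 19 is therefore not comparable with the earlier log2 counts, and some genes, such as Fabp3, change side on the log2 scale. Among all 99 genes lower by share, the control share was nearer to that of deleted wells for 59 and nearer to that of inhibited wells for 40. These genes too were picked for the gap between inhibited and deleted wells, and the same counts were not made over all genes tested.

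Within a plate, a difference between sums can lie in how many wells hold a transcript or in how many copies those wells hold. The 2 parts are given as log2 ratios of inhibited over deleted wells at equal depth, averaged over plates (SD, n = 3). For Lgals3 the share of wells gave -0.48 ± 0.06 and the UMIs per positive well -0.38 ± 0.25, with 2.78, 2.99 and 3.08 UMIs in inhibited, against 3.07, 4.63 and 3.95 in deleted wells. For Krt18 more of it lay in the level, at -0.24 ± 0.05 for the share and -0.45 ± 0.02 for the level, with 4.62, 7.35 and 5.50 UMIs in inhibited, against 6.42, 9.97 and 7.44 in deleted wells. Anxa2 (-0.29 ± 0.13 and -0.31 ± 0.08) and Sqstm1 (-0.28 ± 0.06 and -0.39 ± 0.06) were also lower in both parts on all 3 plates. For the rarer Nkain4, Cbr3, Krt19 and Gc the share gave -1.48 ± 0.40, -0.98 ± 0.27, -0.67 ± 0.17 and -0.55 ± 0.17, while the level gave 0.12 ± 0.47, -0.11 ± 0.31, 0.01 ± 0.29 and -0.06 ± 0.18. A positive well cannot hold less than 1 UMI, so for genes seen in few wells the level has little room to differ at this depth, and the split cannot tell the 2 parts apart. For Acta1 the share gave -1.24 ± 0.65 and the level -0.68 ± 0.54, but at full depth the 5 wells with most of it held 57.7 to 74.7% of its UMIs in inhibited and 65.2 to 71.9% in deleted cells, so a few wells set its sums. Chchd10 was seen in 95.2 to 98.8% of wells and differed in level, with 13.6, 17.2 and 11.4 UMIs in inhibited, against 11.3, 13.4 and 9.38 in deleted wells (0.30 ± 0.05). mt-Rnr2 was in every well, with a mean of 49.1, 38.1 and 50.9 UMIs in inhibited wells, against 68.8, 53.4 and 63.3 in deleted wells and 37.1, 28.0 and 36.7 in control wells (-0.43 ± 0.10 for inhibited over deleted).

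The summed UMIs of a list in each thinned well show where in the distribution the types part. For the epithelial list the median well held 26, 27 and 26 UMIs in inhibited, 29, 30.5 and 30 in deleted and 30, 27 and 28 in control cells. The gap widened at the top, where the 90th percentile was 60.1, 67.9 and 57.9 UMIs in inhibited, 74.0, 102.8 and 71.0 in deleted and 79.2, 69.2 and 70.8 in control cells. The chance that a random inhibited well exceeded a random deleted one, with ties split evenly and 0.5 meaning no separation, was 0.444, 0.428 and 0.435. The mitochondrial genome had medians of 200.5, 188 and 201 UMIs in inhibited, 237, 223 and 231 in deleted and 184, 177 and 188.5 in control wells, and a chance of 0.369, 0.373 and 0.408. Its 90th percentile was 351, 353 and 414 UMIs in inhibited and 514, 484 and 480.0 in deleted wells. The 99th percentile was 818, 936 and 1019.6 UMIs in inhibited and 1048.5, 976 and 990.4 in deleted wells, so the order turned there on plate 3. Nuclear oxidative phosphorylation genes had medians of 98, 93 and 91.5 UMIs in inhibited, 91, 87 and 89 in deleted and 97, 92 and 98 in control wells, with a chance of 0.590, 0.590 and 0.530. S phase genes had medians of 17, 18 and 18 UMIs in inhibited and 15, 17 and 17 in deleted wells. For each list the 2 types overlapped over most of their range.

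**Figure D5:**
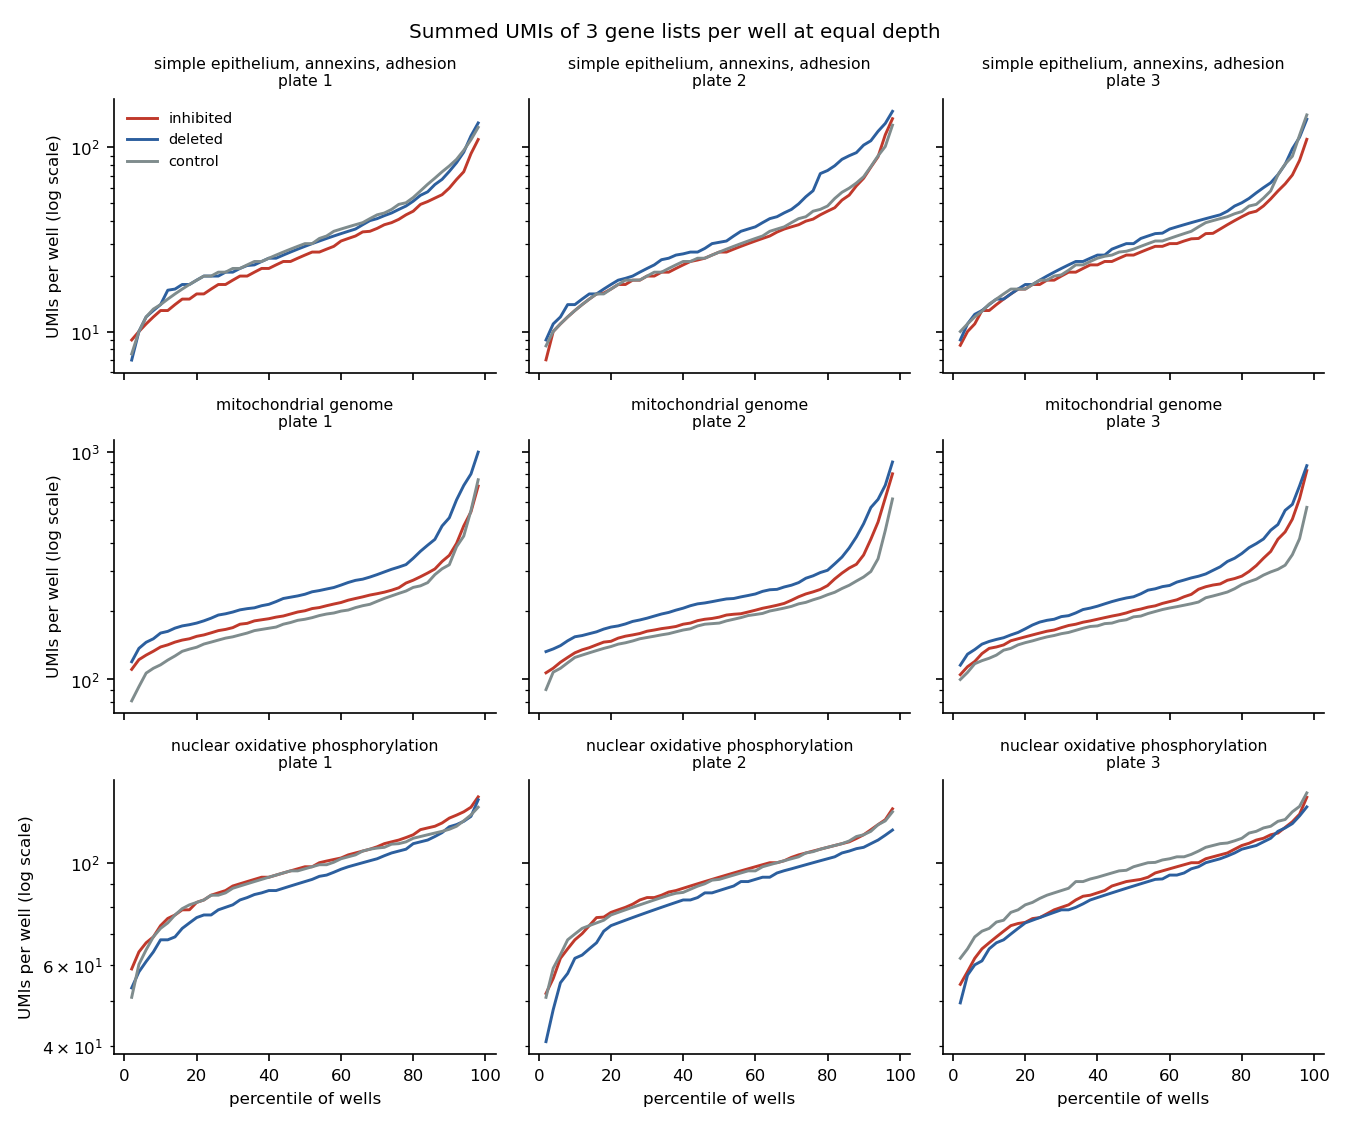
Summed UMIs per well after thinning (vertical axes, log scale) against the percentile of wells, for 3 gene lists (rows) on plates 1 to 3 (columns); red lines are inhibited, blue deleted and grey control wells. The epithelial curves part most in the upper part, with a 90th percentile of 67.9 in inhibited and 102.8 UMIs in deleted wells on plate 2, the mitochondrial curves have deleted highest at the median and the 90th percentile of each plate, and the oxidative phosphorylation curves have deleted lowest at the median on each plate.

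Over the 2000 most abundant genes, single wells of the 2 types could be told apart only in part. A logistic regression trained on thinned wells of 2 plates ranked inhibited above deleted wells of the plate left out with an area under the curve of 0.853, 0.833 and 0.700 for plates 1, 2 and 3 (mean 0.795 ± 0.0835 SD; 0.5 is no separation and 1 complete). The value was lowest for plate 3, where all 3 types lay in other areas of the chip than on plates 1 and 2. Inhibited wells were separated from control wells with 0.875, 0.866 and 0.905, and deleted from control wells with 0.772, 0.721 and 0.844. Both pairs with control thus had their highest value on plate 3. Without the mitochondrial genes the inhibited and deleted wells gave 0.850, 0.827 and 0.695. The part of the chip area in these values was not tested.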

How the data were processed

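Each of 3 chips (plates) held single cells of all 3 types. The deposited tables hold the authors' raw UMI counts for every gene in every well, with no normalisation; the well types come from the deposited plate reports. The submitters' processing notes list mm10 as the build and Subread 1.4.6-p1, featureCounts and STAR 2.5.2b as tools; for strand and multi-mapping, the counting settings are not given in the sources used. Per the labels' protocols, cDNA was made in a SMARTScribe buffer and libraries with a modified Nextera XT kit. GENCODE M21 (GRCm38) named 28682 of 29267 gene identifiers; 585 stayed unnamed. Sequences other than mouse genes, mostly spike-ins (0.615 to 0.742% of UMIs per plate) were left out.

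Of 4610 wells of the 3 types, 197 were left out by the limits of 1000 genes and 20% mitochondrial UMIs. No doublet caller was run; dropping the deepest 5% of wells is an alternative. Counts were summed into 9 libraries (25914860 to 43773924 UMIs) and tested with edgeR 4.0.16 (R 4.3.3): TMM, filterByExpr, quasi-likelihood F test, type plus plate, Benjamini-Hochberg (BH) adjustment over all genes tested, threshold 0.05. All adjusted p-values of levels are from that fit; CPM are counts over TMM-scaled library sizes. Errors beside log2 differences and odds ratios are SE. Shares of wells used limma 3.58.1 on empirical logits, with genes seen in 2 to 98% of wells; DESeq2 1.42.0 served as an alternative. Marker and list sums are CPM of the plain library totals, without TMM. Intervals are 95% Clopper-Pearson. The fits were checked on simulated counts. The sum fit recovered 42% of 1.5-fold and 86% of 2-fold changes, and 5.185% of its 135 calls were unchanged genes. The share test recovered 14% of 1.414-fold and 68% of 2-fold changes in odds, and 3.529% of its 85 calls were unchanged genes. The simulated shares held no plate effect, unlike the design of the data.

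The labels put all types on every plate, so plate was the block. As a check, deviations from type means correlated at 0.293 to 0.426 for the 3 inhibited and deleted pairs of the same plate and at -0.249 to -0.0617 for the 6 pairs of different plates (7577 genes).

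The comparison, the 30 gene lists and the tests were chosen with earlier results of these data known. Genes were named by rule: Kmt2a and Gc, the 10 largest rises and falls among genes that passed with the same sign on each plate and 10 CPM or more on average, up to 3 members per list of smallest p (unadjusted p under 0.05), the 5 largest rises and falls in share, and close paralogs. Others are marked in the text or were listed only to complete a count; 1 gene that the rule names is not reported here.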

Additional observations from a re-analysis of the deposited data

How the results depend on the processing

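The number of genes that passed depended on the processing. It was 46 with RLE size factors, 383 (176 higher, 207 lower in inhibited cells) without a filter on low counts, 278 (126 and 152) at a mean of at least 10 CPM, 170 of 10831 (83 and 87) in thinned wells, 31 without the deepest 5% of wells and 734 (390 and 344) with DESeq2, which called all 53. It was 10 with the 6 inhibited and deleted libraries alone and 0 to 73 when 1 plate was left out; 3 lower genes passed without plate as a replicate block. The cause of these changes was not tested. Of the 53 genes, Lgals3 passed in 13 of 14 alternatives, Acta1 in 12, and none changed sign; over all, calls of the 53 were kept 428 times and lost 308 times. The sign turned for 4 genes that did not pass by level: Spry2 (-0.0815) and Snhg11 (-0.017) in thinned wells, and Kmt2a (-0.407 to 0.00705) and Kif21b (-0.60 to 0.0173) when 1 plate was left out, both above 0 without plate 1. For shares of wells the count was 78 at 20000 UMIs per well, 113 with a second seed (59 shared), 0 without thinning, 0 without the replicate block (149 higher and 551 lower at an unadjusted p under 0.05) and 1 to 266 when 1 plate was left out. The area under the curve of inhibited against deleted wells ran from 0.771 to 0.818, and that of inhibited against control wells was 0.859 with 500 genes. Depth limits rare transcripts, since only genes seen in 2 to 98% of thinned wells were tested by share.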

Other observations

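Several gene groups not described above held single changes or none. Among 25 Polycomb subunits, which place the repressive marks opposite to those of MLL1, 4 were lower and 1 higher at an unadjusted p under 0.05, none passed, and the median log2 difference of inhibited minus deleted was -0.11. Aebp2, a cofactor of PRC2, passed by share of wells. Of 21 genes of primitive endoderm and basement membrane 15 lay below 0 (median -0.19) and 5 were lower at an unadjusted p under 0.05; the collagen gene Col4a2 passed by share. Cytosolic ribosomal proteins (32 genes, median 0.03), heat shock genes (16, -0.01), p53 targets (21, -0.01) and ATF4 targets (21, 0.03) lay near 0 with no member passing by level, as did 18 genes of DNA methylation (-0.01), of which Dnmt3l passed by share. Summed per thinned well, the heat shock list had medians of 68, 72 and 70.0 UMIs in inhibited, 77, 80.0 and 70.0 in deleted and 73, 78 and 71 in control wells. The chance that an inhibited well exceeded a deleted one was 0.355, 0.382 and 0.496, so the types parted on plates 1 and 2 and not on plate 3. Hsp90aa1, an abundant cytosolic chaperone, gave -0.18 ± 0.05 by level (adjusted p = 0.188) and passed in thinned wells (-0.21, edgeR adjusted p = 0.0381).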
